A study of Homo sapiens with 32 samples.

Results

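The genes described here were 9 non-ribosomal genes whose mRNAs are classed as 5′ terminal oligopyrimidine (TOP) mRNAs: EEF1A1, EEF1B2, EEF1D, EEF1G, EEF2, TPT1, PABPC1, NPM1 and HNRNPA1. They were chosen by name as TOP genes, with earlier results of these data known. All 9 were among the 58721 genes listed in the expression tables. EEF1G was listed at 0 in all 16 expression libraries, so 8 of the 9 had levels and were tested. The cells were HEK293T, a human embryonic kidney line. RNA-Seq was made from cells with wild-type eIF3d (WT) or its phosphomimetic form (DD), each given either DMSO or thapsigargin (Tg) at 600 nM for 16 h, with 2 libraries in each of 4 groups. Subunit-Seq was made from cells whose eIF3d carried an HA tag and a TEV protease site (HA-eIF3d-TEV), again after DMSO or Tg, with 2 input and 2 immunoprecipitated (IP) libraries per treatment; the IP holds RNA recovered with the cap-binding domain of eIF3d. The m6A-eCLIP experiment had 16 libraries from WT and DD cells in DMSO and Tg, represented by 1 deposited list of called N6-methyladenosine sites per genotype and treatment. The labels do not say whether replicates were separate cultures, whether a line was 1 clone, or whether native eIF3d remained. The p-values therefore measure the spread between these libraries, which may be technical. In Subunit-Seq that spread was pooled over genes of similar level, so an SE there is not the spread of 1 gene.

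A TOP mRNA begins with a cytosine at the cap followed by an unbroken run of pyrimidines. Translation of such mRNAs is switched on by mTORC1 and held back by LARP1, which binds the cap and the pyrimidine run, so that the supply of ribosomal proteins and translation factors follows growth and stress. Thapsigargin empties the calcium store of the endoplasmic reticulum and starts the integrated stress response, in which bulk translation falls. eIF3d is the eIF3 subunit that can itself bind the cap. None of the 3 assays measures translation of the 9 mRNAs.

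The starts of 6 members were found in a RefSeq promoter table (GRCh38.p14) and are shown because the TOP motif defines the class. Each line gives 10 bases before and 20 bases from the annotated first transcribed base, 5′ to 3′ on the strand of the gene, and capitals mark a first C together with the pyrimidines that follow it; the EEF1G line, whose first base is A, has none. The windows were chr6:73521013-73521042 on the minus strand for EEF1A1, chr2:206159885-206159914 on the plus strand for EEF1B2, chr19:3985444-3985473 on the minus strand for EEF2, chr13:45341164-45341193 on the minus strand for TPT1, chr5:171387839-171387868 on the plus strand for NPM1 and chr11:62573872-62573901 on the minus strand for EEF1G.
EEF1A1: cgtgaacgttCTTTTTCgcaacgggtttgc
EEF1B2: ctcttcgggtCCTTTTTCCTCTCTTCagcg
EEF2: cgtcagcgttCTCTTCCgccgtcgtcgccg
TPT1: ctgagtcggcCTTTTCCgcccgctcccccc
NPM1: agcctgcgtcCTTTCCCTggtgtgattccg
EEF1G: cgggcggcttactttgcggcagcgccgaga

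EEF1A1, EEF2 and TPT1 each began with C and 6 further pyrimidines, NPM1 with C and 7, and EEF1B2 with C and 15. The EEF1G start had A as its first base, followed by 4 pyrimidines, and so did not have the form. EEF1B2 and NPM1 each had a second annotated start, which did not begin with C. Taking the form as a first C followed by at least 4 pyrimidines, 5 of the 6 matched members had it in at least 1 window. It was found in 4.07% of all 35116 windows of the table, and 5.14% of its 27305 genes had at least 1 such window. Among the genes of the cytosolic ribosomal proteins, the largest TOP class, 47 of 63 matched genes (74.6%) had it, and 9 of 10 matched genes had it on a list of other non-ribosomal TOP mRNAs. It was present in 1 of 11 matched genes related to PABPC1, HNRNPA1 and NPM1. None of 10 matched genes had it on each of 2 further lists, elongation and termination factors outside the 9 genes and regulators of TOP mRNAs. A match describes the annotated letters and not the start used in these cells.

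The libraries held 4508228 to 10162095 reads in RNA-Seq and 5102476 to 16856142 in Subunit-Seq, counted from the whole-read steps of the deposited RPKM values. Mitochondrial rRNA took 25.4 to 57.3% of reads in RNA-Seq, 4.64 to 20.4% in the inputs and at most 0.705% in the IPs. The second DMSO input stood apart, with 6395 genes at 1 RPKM or more against 8503 to 11452 in the other inputs. Of the markers that should label the cells, PAX2 and LHX1 stayed at or below 0.194 RPKM in every RNA-Seq library, while NEFL, INA and NEFM were present and were higher in replicate 1 than in replicate 2 of all 4 RNA-Seq groups. NEFM, a neurofilament gene that this line is known to express, lay between 31.9 and 62.2 RPKM in the replicate 1 libraries and between 0.0693 and 1.23 in the replicate 2 libraries. COL1A2, a collagen gene of fibroblasts, was at 7.27 to 10.0 RPKM in the replicate 1 libraries and at 0 in the replicate 2 libraries, and it was at 20.7 in the first DMSO IP against at most 0.507 in the other Subunit-Seq libraries. The part of these marker levels in any result was not tested. PTPRC was at 0 in all 16 libraries, and ALB and PECAM1 did not pass 0.109 RPKM. EIF3D itself lay between 29.2 and 91.2 RPKM in RNA-Seq, and transgene and native reads are not separated there.

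The members of the elongation machinery spanned a wide range of listed levels. EEF1A1 encodes eEF1A, which brings aminoacyl-tRNA to the ribosome, and was the highest of the 9 in every RNA-Seq library. In WT its RPKM was 909.7 (replicate 1) and 637 (replicate 2) with DMSO, then 834 and 1026 with Tg. In DD it was 1034 and 1566 with DMSO, then 1664 and 631 with Tg. The lowest and highest DD libraries bracketed all WT libraries. EEF1B2, a subunit of the exchange factor that reloads eEF1A with GTP, was at 546 and 453, 338 and 448, 476 and 727, and 694 and 268 RPKM in the same order. Both genes were thus higher in replicate 1 than in replicate 2 of DD Tg, and lower in replicate 1 of DD DMSO. EEF1D, another subunit of that exchange factor (chromosome 8, 143579728 to 143597415), lay only between 1.13 and 9.54 RPKM over all 16 libraries, with 77 to 1466 reads. EEF1G, the structural subunit of the same complex, was the member listed at 0, yet it had m6A sites in all 4 lists. The gene counter and the gene lengths behind RPKM are not given in the sources used here. Whether the low listings of EEF1D and EEF1G reflect expression was not tested.

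EEF2 encodes eEF2, which moves the ribosome along the mRNA after each peptide bond. WT cells had 165 and 335 RPKM with DMSO and 219 and 948 with Tg, and DD cells had 171 and 619 with DMSO and 291 and 304 with Tg. Replicate 2 was above replicate 1 in all 4 groups, by 1.04 to 4.34 times. TPT1, the translationally controlled tumour protein and a long-known TOP mRNA, had 236 and 91.3, 162 and 82.7, 129 and 58.5, and 139 and 58.1 RPKM. Here replicate 1 was above replicate 2 in all 4 groups, and every group's range overlapped every other. The order of the group means was WT DMSO (164 ± 103 RPKM, SD, n = 2), WT Tg (122 ± 55.9), DD Tg (98.5 ± 57.2) and DD DMSO (93.7 ± 49.8), and no neighbours in it differed beyond their spread.

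The other 3 members code for RNA-binding and nucleolar proteins. PABPC1, the cytoplasmic poly(A)-binding protein (chromosome 8, 100702916 to 100722088), was at 43.9 and 19.6 RPKM with DMSO and 51.9 and 45.9 with Tg in WT cells, and at 48.4 and 38.4 with DMSO and 45.1 and 90.8 with Tg in DD cells. NPM1, a nucleolar chaperone of ribosome assembly, was at 370.3 and 116, 256 and 222, 313 and 381, and 519.7 and 397 RPKM. Both DD Tg libraries of NPM1 lay above the other 6. HNRNPA1, a splicing regulator, was at 92.1 and 43.5, 63.4 and 127, 68.2 and 256, and 175 and 194 RPKM. Both of its DD Tg libraries lay above all 4 WT libraries, while its DD DMSO libraries were the third lowest and the highest of the 8. The share of all genes whose DD Tg libraries were separated like those of NPM1 or HNRNPA1 was not counted.

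**Figure D1:**
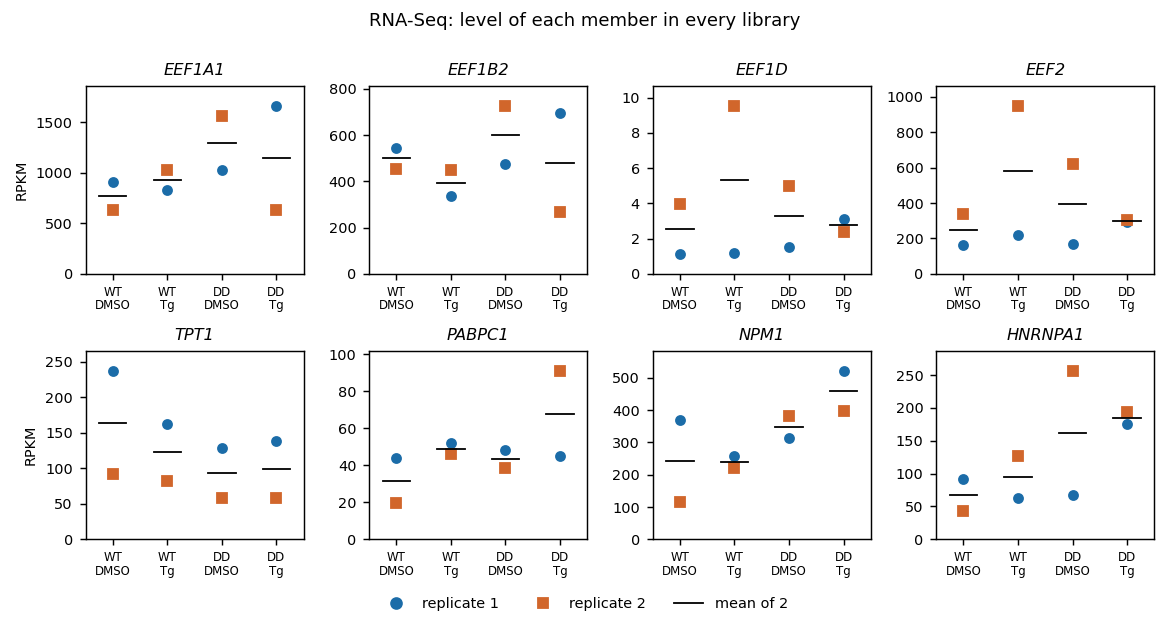
RNA-Seq RPKM of the 8 members with a level in each of 8 libraries, on linear axes that start at 0; circles are replicate 1, squares are replicate 2 and the bar is the mean of 2. EEF2 is higher and TPT1 lower in replicate 2 of all 4 groups, and the groups overlap for most members.

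No member passed the test in RNA-Seq. In each of 5 comparisons (the Tg effect within WT, the Tg effect within DD, the genotype effect without Tg, the genotype effect with Tg, and their interaction) 0 of the 8 tested members passed limma's moderated test at a Benjamini-Hochberg adjusted p of 0.05, against a background of 0 of 9637 genes (0%) in every one. Between 21 and 82 of the 9637 genes had an unadjusted p under 0.05. The intervals were wide, so these data do not show equal levels. EEF2 differed by 0.95 ± 1.00 (SE) on the log2(RPKM + 1) scale between Tg and DMSO in WT, with a 95% interval of -1.28 to 3.18, and by -0.13 (-2.36 to 2.10) in DD. HNRNPA1 had 1.05 ± 0.90 for DD against WT in DMSO (-0.97 to 3.07) and 1.03 in Tg (-0.99 to 3.05). For NPM1 the same values were 0.73 (-1.13 to 2.59) and 0.93 (-0.93 to 2.79). The largest interaction among the members was that of EEF2, -1.08 ± 1.41 (-4.23 to 2.07).

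The members' median was imprecise in RNA-Seq and did not differ from that of all genes beyond its spread. The medians relative to all genes were 0.27 for Tg in WT (6 of 8 members above the all-gene median), -0.02 for Tg in DD (4 of 8), 0.37 for DD against WT in DMSO (7 of 8) and 0.10 in Tg (5 of 8). Each was smaller than the SD of the same median computed from each of the 2 replicate numbers alone, which was 0.772, 0.786, 0.558 and 0.945. An SD of 2 values shows imprecision and not closeness. Leaving out 1 library moved the DD against WT value in DMSO between -0.15 and 0.83. Single members could lie far out in that comparison, HNRNPA1 at percentile 97.6 of all genes and TPT1 at percentile 2.23. The ribosomal protein genes had medians of -0.35 for Tg in WT, with 3 of 76 above the all-gene median, and -0.72 in DD, with 7 of 76 above it, and none of them was called. The DD value had opposite signs in the 2 replicate numbers, 0.21 with 65 of 76 above in replicate 1 and -1.58 with 2 of 76 above in replicate 2. In WT the values were -0.35 and -0.39. RPS2 and RPS18, their most abundant genes, had log2 differences of 0.10 ± 1.08 and -0.30 ± 0.81 for Tg in WT (both adjusted p = 1 in limma). The 13 other non-ribosomal TOP mRNAs had medians of -0.02 and -0.12 in these comparisons, with 6 and 5 above, and RACK1, a scaffold protein of the small ribosomal subunit, had -0.17 ± 0.83 in WT. No gene of any of these lists was called in RNA-Seq. Scaling the libraries by median ratios moved the all-gene median by up to 0.14 in this assay.

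Within a replicate number the differences were often opposed. For Tg in DD, EEF1A1 differed by 0.69 between the replicate 1 libraries and by -1.31 between the replicate 2 libraries, and EEF1B2 by 0.54 and -1.44. For DD against WT in DMSO, HNRNPA1 had -0.43 and 2.53. For TPT1 the DD against WT values were -0.87 and -0.63 in DMSO and -0.22 and -0.50 in Tg, all below 0. The genes whose profile over the 8 RNA-Seq libraries was most like the mean profile of the members were ITGB5 (Pearson r = 0.97, n = 8 libraries), ACAD9 (0.96) and DTNBP1 (0.95), given as a description of libraries that share replicate numbers and depth. The members did not share 1 profile: against the mean of the other members r ran from -0.48 (TPT1) to 0.76 (HNRNPA1).

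**Figure D2:**
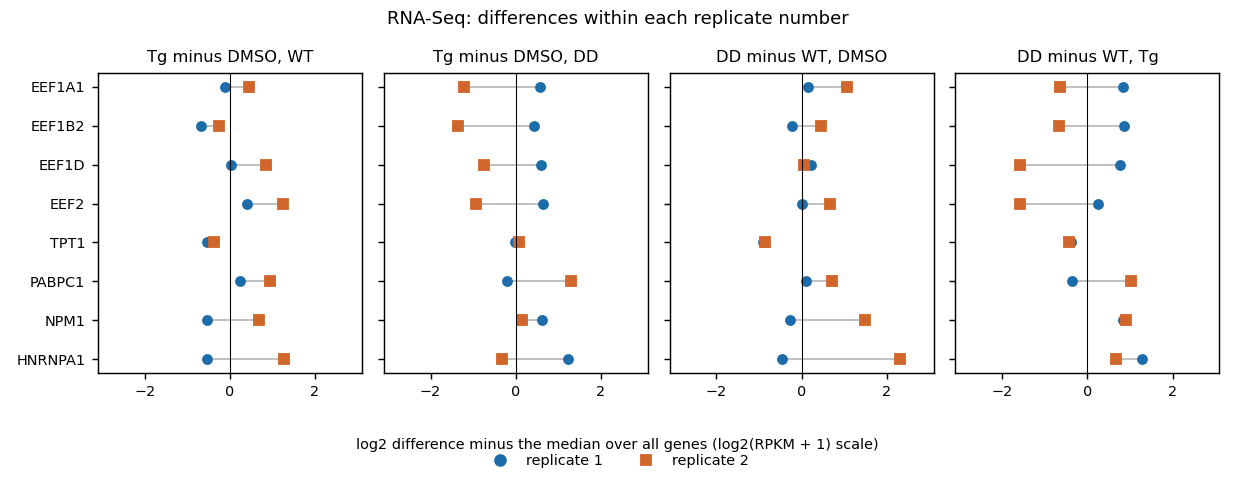
Log2 differences of each member in RNA-Seq, less the median over all genes, computed from the replicate 1 libraries (circles) and the replicate 2 libraries (squares) alone. Values for Tg in DD fall on both sides of 0 for most members, and those of TPT1 for DD against WT are all below 0.

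Subunit-Seq asked which mRNAs were recovered with the cap-binding domain of eIF3d. PABPC1 and HNRNPA1 were higher in IP than in input, in DMSO and in Tg. PABPC1 was measured at 166 and 22.2 RPKM in the DMSO inputs (replicates 1 and 2) and 358 and 208 in the DMSO IPs, and at 122 and 79.7 in the Tg inputs and 542 and 191 in the Tg IPs. HNRNPA1 was at 355 and 75.2 in input and 879 and 400.2 in IP in DMSO, and at 162 and 158 in input and 589 and 315 in IP in Tg. For both genes the 2 IP libraries lay above the 2 input libraries in each treatment, without overlap. The share of all genes separated in this way was not counted, here or for the members below. IP over input was above 0 for the median gene in both treatments. The log2 difference of PABPC1 was 2.14 ± 0.58 (SE, adjusted p = 0.00523 in limma) in DMSO and 1.70 ± 0.58 (adjusted p = 0.0312) in Tg. That of HNRNPA1 was 1.85 ± 0.53 (adjusted p = 0.00834) and 1.42 ± 0.53 (adjusted p = 0.0471). Within replicates 1 and 2 the DMSO values were 1.10 and 3.18 for PABPC1, and 1.31 and 2.40 for HNRNPA1. The all-gene medians there were 0.38 and 1.57. In Tg the values were 2.14 and 1.25 for PABPC1 and 1.85 and 0.99 for HNRNPA1, against all-gene medians of 0.85 and 0.84. In Tg replicate 2 HNRNPA1 thus lay near the median gene, at percentile 55.9, and PABPC1 was at percentile 65.7.

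These were 2 of the 8 tested members in each treatment, both higher, read against 23.2% of 9813 genes called in DMSO and 16.2% in Tg. All-gene medians were themselves 0.96 and 0.87, with 2100 genes called higher and 172 lower in DMSO and 1432 and 159 in Tg. With median-ratio scaling, which moved the all-gene median by up to 1.09, these became 12 higher and 17 lower in DMSO and 27 and 58 in Tg. Neither PABPC1 (0.66, adjusted p = 0.454 in DMSO) nor HNRNPA1 (0.35, adjusted p = 0.727) was called then, although both stayed above 0 in both treatments. No member was called in a fit without the replicate block (PABPC1 adjusted p = 0.130 in DMSO and 0.207 in Tg, HNRNPA1 0.129 and 0.215) or without the filter on low values. The DMSO call of PABPC1 was lost without the second DMSO input (1.19, adjusted p = 0.383) or the second DMSO IP (1.70, adjusted p = 0.407), and that of HNRNPA1 without either of these or the first DMSO IP (1.08, 1.89 and 1.81, adjusted p = 0.437, 0.222 and 0.0589). In Tg both calls were lost without any 1 of the 4 Tg libraries and without the first DMSO IP, with values of 1.15 to 2.25 for PABPC1 and 0.73 to 2.11 for HNRNPA1, and that of HNRNPA1 also without the second DMSO IP (adjusted p = 0.0594).

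NPM1 was next, at 480.1 and 161 RPKM in input and 864 and 432 in IP in DMSO, and 281 and 298 in input and 671 and 447 in IP in Tg. The groups did not overlap in Tg, but its log2 differences of 1.13 ± 0.50 and 0.92 ± 0.50 were not called (adjusted p = 0.0763 and 0.171 in limma) and turned to -0.37 in both treatments with median-ratio scaling. NPM1 was called without the first DMSO input (1.67, adjusted p = 0.0384).

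The elongation factors were not called against input. EEF1A1 was at 1473 and 728 RPKM in input and 1857 and 1592 in IP in DMSO, and at 1041 and 1285 in input and 1568 and 1078 in IP in Tg. EEF2 was at 1171 and 199 in input and 769.9 and 903 in IP in DMSO, and at 594 and 769.8 in input and 1204 and 558 in IP in Tg. Only the DMSO groups of EEF1A1 did not overlap. Its log2 differences were 0.73 ± 0.40 and 0.17 ± 0.40 (adjusted p = 0.147 and 0.769), and those of EEF2 were 0.78 ± 0.45 and 0.28 ± 0.45 (adjusted p = 0.171 and 0.662). With median-ratio scaling all 4 fell below 0, at -0.78 and -1.12 for EEF1A1 and -0.72 and -1.02 for EEF2. The EEF2 value in DMSO rested on the inputs: it was 1.98 (adjusted p = 0.0342) without the first and -0.41 without the second.

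EEF1B2, TPT1 and EEF1D had log2 differences below 0, none of them called. EEF1B2 was at 612 and 929.8 RPKM in input and 589 and 479 in IP in DMSO, and at 571 and 930.0 in input and 335 and 548 in IP in Tg, so that both IPs were below both inputs in each treatment. TPT1 was at 87.1 and 156 in input and 92.2 and 92.3 in IP in DMSO, and at 81.4 and 138 in input and 58.0 and 113 in IP in Tg, with overlapping groups. EEF1D ranged from 3.54 to 9.39 with no separation. The log2 differences in DMSO and Tg were -0.51 ± 0.47 and -0.76 ± 0.47 for EEF1B2, -0.34 and -0.38 for TPT1, and -0.29 and -0.10 for EEF1D, with adjusted p of 0.219 to 0.919 in limma. Against the all-gene median EEF1B2 was the lowest member, by -1.47 in DMSO and -1.64 in Tg.

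**Figure D3:**
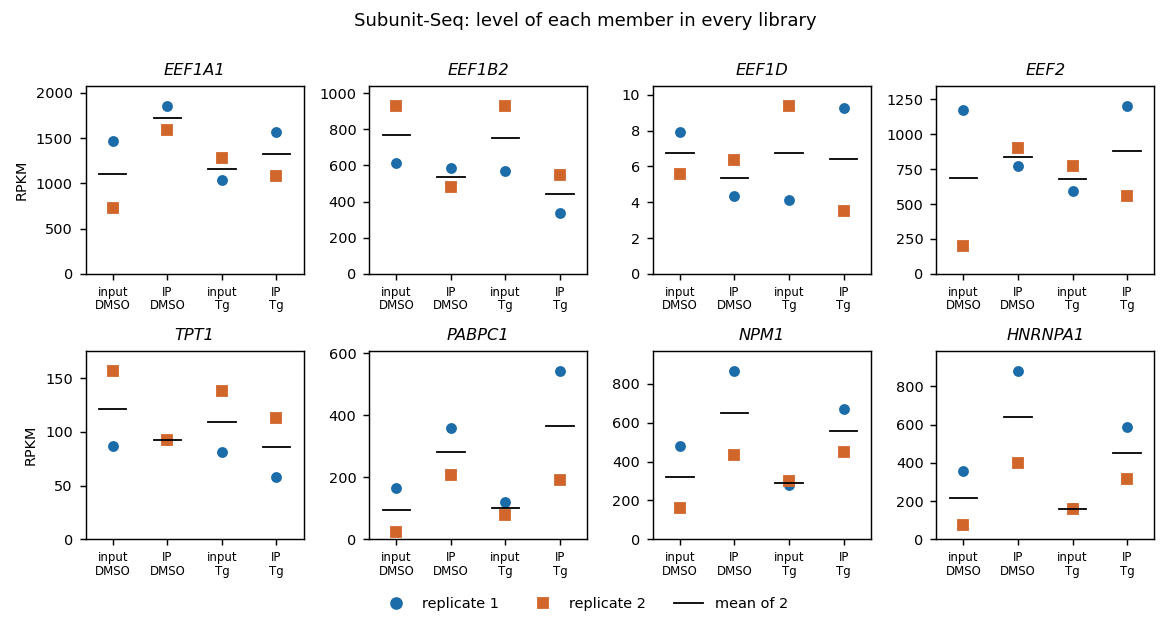
Subunit-Seq RPKM of the 8 members with a level in each of 8 libraries, on linear axes that start at 0; circles are replicate 1, squares are replicate 2 and the bar is the mean of 2. Both IPs of PABPC1 and HNRNPA1 are above both inputs of the same treatment, and both IPs of EEF1B2 are below them.

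The members' median lay between those of 2 gene groups with opposite values. It was -0.20 relative to all genes in DMSO and -0.65 in Tg, with 3 of 8 (PABPC1, HNRNPA1 and NPM1) above the all-gene median in each. Without the filter on low values it was 0.55 in DMSO (5 of 8 above) and -0.01 in Tg (4 of 8), and with median-ratio scaling -0.62 and -0.92. Leaving out 1 library moved the Tg value between -1.06 (without the first Tg input) and -0.14 (without the second Tg IP), and within replicate numbers it was 0.15 (5 of 8 above) and -1.11 (2 of 8). The ribosomal protein genes had a relative median of -1.97 in DMSO and -1.95 in Tg; 32 and 33 of 76 were called lower and none higher, and 1 of 76 lay above the all-gene median. Among them RPL39 was lower, at -1.91 ± 0.38 in DMSO and -1.98 ± 0.38 in Tg (adjusted p = 7.92e-05 and 1.98e-05 in limma), and RPL29 was at -1.87 ± 0.37 and -1.89 ± 0.37. A list of genes related to PABPC1, HNRNPA1 and NPM1 (other poly(A)-binding proteins and their partners, other hnRNPs, NPM3 and NCL) had relative medians of 1.22 and 1.13, with 9 and 7 of 13 called higher and none lower. PABPN1, the nuclear poly(A)-binding protein, was the highest of them, at 2.98 ± 0.65 and 3.69 ± 0.65 (adjusted p = 0.000469 and 2.37e-06). NCL, or nucleolin, had 2.86 and 2.27, HNRNPA2B1 2.59 and 2.37, PABPC4 2.53 and 2.55, and HNRNPA0 2.19 and 2.53. With median-ratio scaling 0 ribosomal protein genes were called in either treatment, and 0 and 1 of the 13 related genes, with relative medians of -2.39 and -2.22, and 0.92 and 0.95. Without the second DMSO input no gene of either list was called in DMSO, and the relative medians there were -1.28 and 0.66. A fit without the replicate block called none of either list in DMSO and 1 of each in Tg.

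The shares called among the other TOP pathway genes are read against the 23.2% and 16.2% of all genes called in DMSO and Tg. Of the 13 other non-ribosomal TOP mRNAs, 4 were called higher in DMSO, IPO7 (2.21), EIF4B (2.10), NAP1L1 (1.76) and EIF2S3 (1.73), and none in Tg; their relative medians were -0.75 and -0.77. EIF4B is a helicase cofactor of initiation, and EIF2S3 the GTP-binding subunit of eIF2. Of 12 tested regulators of TOP mRNAs, 3 were called higher in DMSO and 2 in Tg, which are shares near those of all genes. The relative medians of these regulators were 0.21 and 0.15. LARP1, the protein that binds TOP mRNAs, had 2.96 ± 0.67 (adjusted p = 0.000753) and 2.78 ± 0.67 (adjusted p = 0.00125). MTOR (2.04) and RPTOR (1.68) were called in DMSO, and EIF4EBP2 (1.89), a 4E-BP that holds the cap-binding protein eIF4E, in Tg. Of 11 further elongation and termination factors, ABCE1 (1.87), which recycles ribosomes, and GSPT1 (1.78), a release factor, were called in DMSO and none in Tg. The 11 factors had relative medians of -0.19 and -0.29, and their shares called were not above those of all genes. None of the DMSO calls in this paragraph was made without the second DMSO input, and no gene of these 3 lists, LARP1 included, was called in either treatment with median-ratio scaling, without the replicate block or without the filter on low values. Whether these lists differ from one another, or between treatments, was not tested.

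**Figure D4:**
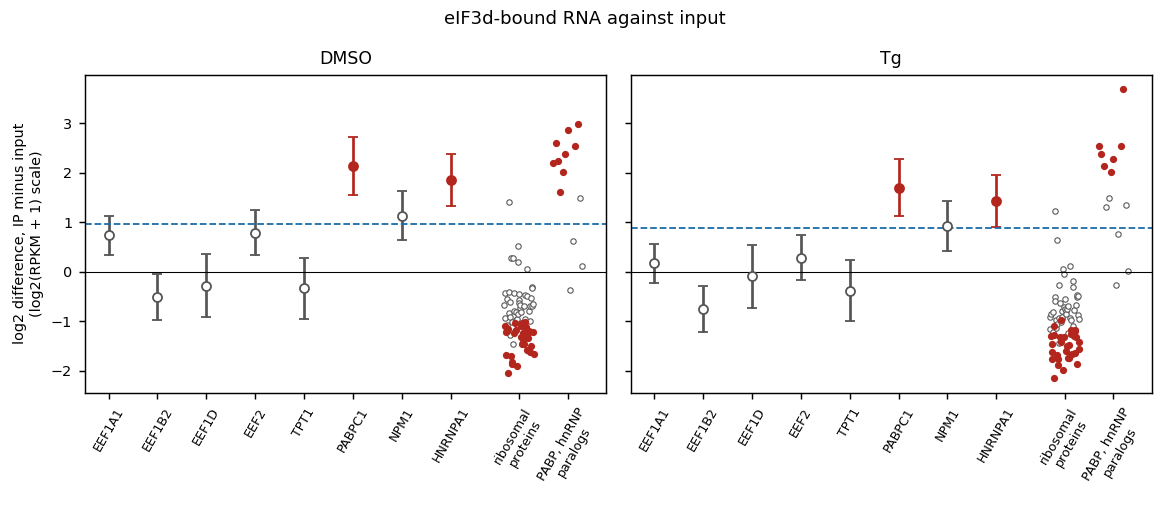
Log2 difference between IP and input (log2(RPKM + 1) scale) in DMSO and Tg for the 8 members with their SE, beside 76 ribosomal protein genes and 13 genes related to PABPC1, HNRNPA1 and NPM1; filled red symbols passed an adjusted p of 0.05, and the dashed line is the median of all genes. PABPC1 and HNRNPA1 are the called members, and 3 of 8 members lie above the dashed line.

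No member passed a test of Tg within Subunit-Seq. The change of IP over input with Tg was called for 0 of 8 members, against 0.0611% of genes. Member values ran from -0.56 ± 0.56 (EEF1A1) to 0.19 ± 0.90 (EEF1D), 7 of 8 below 0. The all-gene median was itself below 0, at -0.07, and 2 of 8 members lay above it. The comparison of Tg with DMSO inputs called 0 of 8 against 0.051% of genes, with PABPC1 at 0.68 ± 0.58 and EEF2 at 0.48 ± 0.45. Among the IPs, 0 of 8 were called against 0.0713% of genes, and HNRNPA1 had the largest difference, -0.46 ± 0.53. These 3 comparisons share libraries with each other and with those above. All 8 members had an adjusted p of at least 0.9995 in each (limma). The genes most like the mean member profile over the 8 Subunit-Seq libraries were ZNF622 (r = 0.99, n = 8), CUTC (0.99) and ZNF133 (0.99). EEF1B2 (r = -0.62 with the mean of the other members) and TPT1 (-0.60) ran against that profile, and EEF1D was at 0.15.

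Reads of these genes can be shared with processed pseudogenes, which are near-identical intronless copies. The tables list 224 such copies by symbol, and the 3 most abundant were EEF1A1P5 (792 RPKM on average over 16 libraries), EEF1A1P6 (293) and EEF1A1P13 (135). Copies took 16.0 to 34.3% of the reads of EEF1A1 and its copies together. In RNA-Seq that share was 16.0 to 18.6% in the replicate 1 libraries and 25.2 to 34.3% in the replicate 2 libraries, without overlap. The same split by replicate number was seen in RNA-Seq for HNRNPA1 (4.01 to 5.36% against 13.4 to 18.5%), NPM1 (4.89 to 7.42% against 10.7 to 17.9%), TPT1 (2.30 to 3.76% against 7.51 to 16.8%) and EEF1B2 (8.40 to 11.05% against 16.4 to 19.97%). For EEF1D, with few reads, the share was higher in the replicate 1 libraries (8.33 to 28.7%) than in the replicate 2 libraries (0 to 1.29%). For PABPC1 it did not pass 1.08%. Adding the reads of the copies to each member, an alternative chosen after seeing the data, moved the IP over input value of EEF1A1 from 0.73 to 0.80 in DMSO and from 0.17 to 0.28 in Tg, both uncalled, and left the 2 called members in each treatment. How the authors treated reads that map to several places is not given in the sources used here, so the levels of members with copies are uncertain to that extent.

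The m6A lists held sites in 7 of the 9 genes. EEF2 and TPT1 carried most of them: the WT lists gave EEF2 9 sites with DMSO and 7 with Tg, and the DD lists 7 and 25, while TPT1 had 12, 2, 3 and 20 in that order. EEF1G had 1, 1, 1 and 4 sites although it was listed at 0 in the expression tables. PABPC1 had 1 site in WT DMSO and 1 in DD Tg. EEF1B2 (3 sites), NPM1 (2) and HNRNPA1 (2) had sites in DD Tg alone, and EEF1A1, the highest member in RNA-Seq, had none, like EEF1D. Every site of EEF1B2, EEF1G, EEF2, TPT1 and NPM1 lay on the strand of its gene; for PABPC1 and HNRNPA1 the strand was not compared.

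The lists differ in length and carry no replicate, score or coverage, so they allow no test, and a longer list can hold more sites of any gene. Sites in the 9 genes were 23 of 3000 in WT DMSO (0.767%), 10 of 1572 in WT Tg (0.636%), 11 of 1796 in DD DMSO (0.613%) and 57 of 5050 in DD Tg (1.13%). At least 1 site was present in 4, 3, 3 and 7 of the 9 genes. Among 9145 genes with a RefSeq span and a mean of at least 1 RPKM in RNA-Seq, the share with a site was 11.5%, 5.76%, 6.39% and 19.1%. EEF1G, counted with a site in every list, is listed at 0 and would not enter that background. Most members were also far above 1 RPKM, and the shares were not matched for level. Of 82 distinct positions, 72 were in 1 list and 4 were in all 4 lists.

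The 4 positions common to all lists were 3977489 and 3979411 on chromosome 19, both in EEF2, and 45337261 and 45337294 on chromosome 13, both in TPT1 (GRCh38). In TPT1 the sites of WT DMSO and DD Tg gathered around this pair. Within 100 bases on either side, from 45337161 to 45337394, lay 8 of the 12 sites of WT DMSO and 13 of 20 of DD Tg. These counts include the pair itself, which is in every list by definition. The 2 of 2 sites of WT Tg and 2 of 3 of DD DMSO that lay there were that pair alone. In EEF2 sites gathered near the 3′ end of the gene span (3976056 to 3985463). There 5 of 9, 5 of 7, 4 of 7 and 19 of 25 sites lay within 600 bases of the end. Exon and UTR annotation was not used here, so the sites are placed by gene span.

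HNRNPA1 has no window in the promoter table, and its DD Tg site at 54280726 on chromosome 12 is the first position of its gene span. Within the 50 bases after a start that the promoter table covers, 1 member site was listed. It was an EEF1B2 site of DD Tg on chromosome 2 at 206159927, 32 bases after the first base of the TOP start. The 30 bases around it, chr2:206159912-206159941 on the plus strand, are given with the listed base in capitals.
EEF1B2: gcgtggggcgcccacAatttgcgcgctctc

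**Figure D5:**
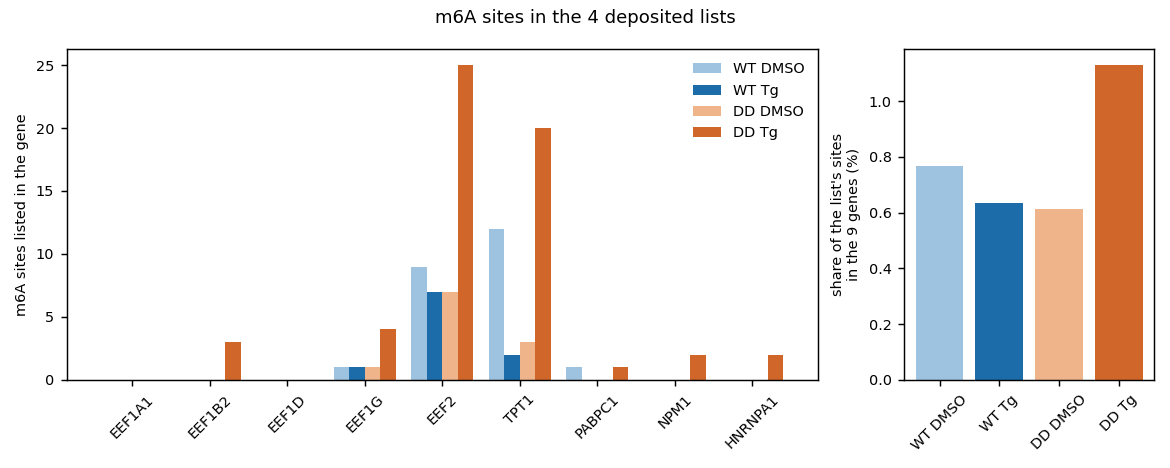
Left, number of m6A sites listed in each of the 9 genes in 4 deposited lists, 1 per genotype and treatment; right, share of each list's sites that lie in the 9 genes, in percent. EEF2 and TPT1 hold most sites in every list, and the DD Tg list has 57 of 5050 sites in these genes.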

How the data were processed

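The authors deposited RPKM values (reads per kilobase of gene, scaled to library size) in 1 RNA-Seq table and 2 Subunit-Seq tables, 1 per replicate number, and m6A sites as positions with strand. Per the submitters' processing notes the build was GRCh38 and cutadapt, STAR and BWA were among the tools, without versions; the gene counter, annotation and site caller are not given in the sources used here. Per the labels' protocols, RNA-Seq used poly(A) RNA and a kit not described as directional, and Subunit-Seq a directional kit. Total reads per library were recovered from the whole-read steps of RPKM (tolerance 0.02 read). They bound only counting error.

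Values were analysed as log2(RPKM + 1) with limma 3.58.1 in R 4.3.3 (trended moderation, two-sided, Benjamini-Hochberg over all genes tested, threshold 0.05), tested on simulated data. A fold change on this scale understates the change of low genes. RNA-Seq used 4 groups in 1 fit over 9637 genes with a mean of at least 1 RPKM, and Subunit-Seq 4 groups plus the replicate number over 9813 genes with that mean in the inputs; its estimated prior was infinite, so its errors use the pooled spread alone. List medians are relative to the median of all genes. Sites were placed in RefSeq gene spans (GRCh38.p14) after removing duplicate entries; at all 336 single-base sites inside promoter windows the end position held A.

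The members and lists were chosen with earlier results of these data known. Named genes were the 9 members, up to 3 called genes of a list with the largest difference (otherwise the 2 most abundant), EIF3D, 3 genes most like the members per assay and the 3 most abundant copies. One gene under this rule is not reported here. NAP1L1, EIF2S3, NCL, HNRNPA2B1, PABPC4 and HNRNPA0 fall in part outside that rule in 1 treatment or the other, and were added after their values were seen. Alternatives were another pseudocount, no filter, median-ratio scaling, the replicate number in or out of the fit, no trend, each library left out, and reads of copies added.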

Additional observations from a re-analysis of the deposited data

How the results depend on the processing

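In RNA-Seq 0 members and 0 genes were called under each alternative, except that 3 genes, none of them a member, were called for DD against WT in DMSO with the replicate number as a block and the second DD Tg library left out. The block alone gave 0 calls in all 5 comparisons. Replicate numbers are not said to pair libraries. Differences between replicates (2 minus 1) correlated over genes at 0.743 to 0.865 among WT DMSO, WT Tg and DD DMSO in RNA-Seq. Between DD Tg and these groups r was 0.134 to 0.299, and in Subunit-Seq it was 0.00200 to 0.510 between groups. The main RNA-Seq fit left the replicate number out, so its SEs include any difference shared by replicate number. The main Subunit-Seq fit included it. Of 600 member values under RNA-Seq alternatives, 65 changed sign, all uncalled.

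In Subunit-Seq the calls depended on the setting. For IP against input in DMSO, main counts of 2272 genes and 2 members became 1332 genes with a pseudocount of 0.1 (2 members), 0 and 0 without a filter on low values, 29 and 0 with median-ratio scaling, and 24 and 0 without the replicate block. Leaving out 1 library gave 0 to 5073 genes and 0 to 4 members. In Tg, 1591 genes and 2 members became 447 and 0 with the pseudocount, 0 and 0 without a filter, 85 and 0 with median-ratio scaling, and 36 and 0 without the block, and 114 to 2905 genes and 0 to 2 members with 1 library left out; without trended moderation 1 member was called. The 6, 5 and 7 genes called for the change with Tg, between inputs and between IPs were 0 under each of those settings, except for 1 gene between IPs with the pseudocount, and 0 to 19, 0 to 33 and 0 to 24 with 1 library left out. The cause was not tested. Of 560 member values, 55 changed sign, none of them called, 31 lost and 2 gained a call, and none that was called reversed. The site counts kept their values with sites on the opposite strand left out, where the gene's strand was known, and with duplicates kept. With 2 libraries per group, the lone library left in a group is assumed to vary like the other groups.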
